A study of Homo sapiens with 4 samples.

Results

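The receptors and ligands of the EGFR family were followed in A549, a human lung adenocarcinoma cell line, after transduction with an FCN3 virus. The 10 genes were picked by symbol from the 25192 genes of the deposited tables: the receptors EGFR, ERBB2 and ERBB3, the ligands AREG, EREG, HBEGF, TGFA, BTC and NRG1, and the feedback inhibitor ERRFI1. The rule uses the symbol alone, and all 10 passed the filter on low counts that left 14099 genes for testing. The data were 4 RNA-seq libraries, 2 from cells given a control virus without insert (empty virus, EV) and 2 from FCN3-virus-transduced cells, all extracted 48 h after infection. The retroviral vector carries GFP in both groups, and the FCN3 insert has a V5 tag. All libraries come from a single cell line, and nothing in the labels says whether replicates are separate transductions, so p-values measure the spread between these libraries only. FCN3, the targeted gene, had expected counts of 1 and 0 in EV replicates 1 and 2 and of 722388 and 448352 in FCN3 replicates 1 and 2.

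The EGFR family comprises receptor tyrosine kinases that form pairs at the cell surface when a ligand with an EGF-like domain binds. AREG, EREG, HBEGF, TGFA and BTC bind EGFR, while NRG1 binds ERBB3 and ERBB4, and ERBB2 has no known ligand of its own and acts as the preferred partner of the others. The ligands are made as membrane-anchored precursors that metalloproteases such as ADAM17 cut free. The receptors signal through SHC1 and GRB2 to the RAS-MAPK cascade and through PI3K to AKT. ERRFI1, also known as MIG6, is a cytosolic protein that binds the EGFR kinase domain, blocks it and is itself induced by EGFR signalling. EGFR is a classical oncogene of lung adenocarcinoma.

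The libraries held between 16353554 and 35733735 expected counts, and replicate 1 was the deeper one in both groups. Counts were normalized by TMM to CPM (counts scaled to a common library size), in which 3 counts, the floor used for detection, correspond to between 0.0823 and 0.179 CPM. This floor covers counting error only. The epithelial keratins KRT7, KRT8 and KRT18 were each between 1131 and 4459 CPM in every library, whereas EPCAM was between 1.00 and 3.11 CPM and CDH1 between 9.23 and 24.4 CPM. With replicate number as a block in edgeR, 3 of the 6 epithelial markers were called up-regulated and 2 down-regulated (adjusted p under 0.01). Of all tested genes, 19.1% and 17.1% were. EPCAM and CDH1 fell (log2 fold change -1.13 and -0.57) and KRT8, KRT18 and KRT19 rose (0.26, 0.31 and 1.27). KRT19 went from 23.1 and 37.5 CPM to 67.3 and 74.4 CPM, while KRT7 was not called. Without the block edgeR called 0 of the 6, beside 0.965% of all genes. DESeq2 without the block called 1, KRT19, beside 7.86%. The groups overlapped for CDH1, KRT7, KRT8 and KRT18. Of 9 markers of leukocytes, endothelium and fibroblasts, 5 (PTPRC, CD3E, LYZ, PECAM1 and DCN) were at or under the floor in all 4 libraries. The summed level of the 9, mostly CD68 and COL1A1, was 42.0 and 60.0 CPM in EV cells and 71.3 and 76.2 CPM with the FCN3 virus, and CD68 alone went from 31.0 and 33.0 to 61.7 and 48.8 CPM. The part of these epithelial and other markers in the results was not tested. In bulk RNA, fewer cells of a type and less RNA per cell cannot be told apart.

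The question was whether transcripts of the family differ between EV and FCN3-virus-transduced cells. EGFR, its inhibitor ERRFI1 and the ligands EREG and HBEGF were higher with the FCN3 virus and AREG was lower, by less than 2-fold each, when libraries of the same replicate number were compared with each other. Without that pairing, edgeR's quasi-likelihood test (Benjamini-Hochberg adjustment, FDR threshold 0.01) called 0 of the 10 genes, beside 0.965% of all tested genes. At an unadjusted p under 0.05 there were 3 (EGFR, ERRFI1 and HBEGF), beside 25.1% of all tested genes, and DESeq2 without the block called 2 of the 10, both up-regulated, beside 7.86% of all genes (4.43% up-regulated and 3.43% down-regulated). Once replicate number entered the model as a block, edgeR called 5 of the 10, 4 up-regulated and 1 down-regulated, beside 36.2% of all genes (19.1% up-regulated and 17.1% down-regulated). The median log2 fold change of the 10 genes was 0.22 without and 0.23 with the block, against 0.02 and 0.01 over all tested genes. The block leaves little spread of a gene's own to estimate from 4 libraries, so that its p-values rest largely on the spread shared across genes.

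**Figure D1:**
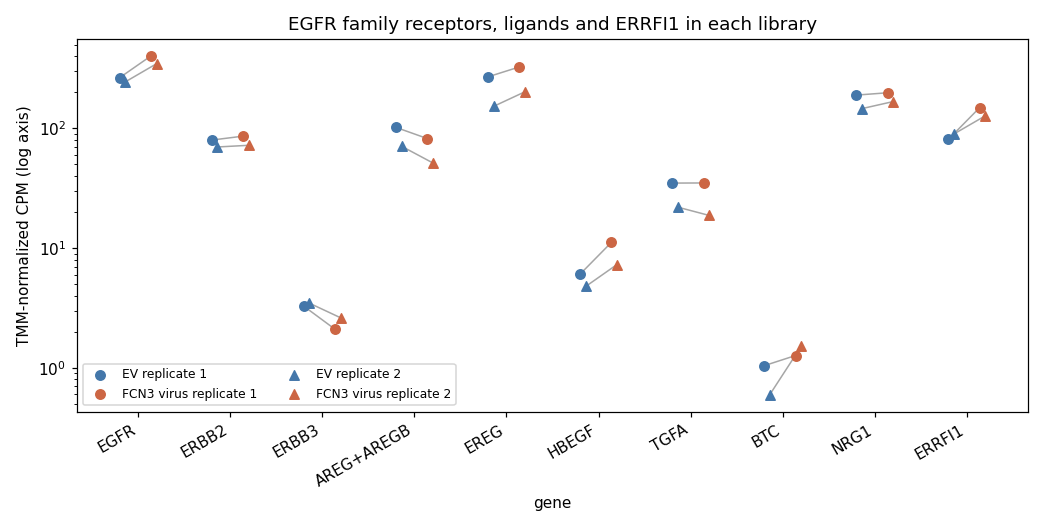
TMM-normalized CPM (log axis) of the 10 genes in each library, with EV libraries in blue, FCN3 virus libraries in orange, circles for replicate 1, triangles for replicate 2 and a grey line joining libraries of the same replicate number. AREG is drawn summed with its copy AREGB. Both lines rise for EGFR, ERBB2, EREG, HBEGF, BTC, NRG1 and ERRFI1 and both fall for ERBB3 and AREG + AREGB. The EV and FCN3 points of ERBB2, AREG + AREGB, EREG, TGFA and NRG1 overlap in height.

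Among the receptors, EGFR stood at 266 and 245 CPM in EV replicates 1 and 2 and at 404 and 347 CPM in the FCN3 libraries. The groups did not overlap, the lower FCN3 value exceeding the higher EV value. The log2 fold change was 0.56 (SE 0.11, adjusted p = 0.042 from edgeR without the block) and 0.55 with the block (SE 0.05, adjusted p = 1.1e-13), that is 1.47-fold. In DESeq2 the adjusted p was 0.0012 without and 5.3e-14 with the block. On GRCh37, EGFR occupies chr7:55086710-55279321, plus strand. Its antisense neighbour EGFR-AS1 had between 2.02 and 6.11 expected counts per library, against 4094 to 13687 for EGFR itself.

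ERBB2 was at 79.9 and 69.9 CPM in EV cells and at 86.1 and 72.2 CPM with the FCN3 virus, so that the groups overlapped. Its log2 fold change was 0.08 without the block (SE 0.13, edgeR adjusted p = 0.74) and 0.08 with it (SE 0.06, adjusted p = 0.28). The ratio of EGFR to ERBB2 on the TPM scale, which corrects for gene length, was 2.75 and 2.88 in the EV libraries and 3.87 and 3.97 in the FCN3 libraries. ERBB2 (GRCh37 chr17:37844167-37886679, plus strand) overlaps PGAP3 and MIEN1 on the opposite strand in the GENCODE annotation. MIEN1 had 650 to 1438 expected counts per library and ERBB2 1170 to 2921, and how the counting treated strand is not given in the sources used here.

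ERBB3, the receptor of NRG1 with an impaired kinase, was at 3.27 and 3.46 CPM in EV cells and 2.09 and 2.61 CPM in FCN3-virus-transduced cells. These levels come from 119, 58, 71 and 52 expected counts. Both FCN3 libraries lay below both EV libraries, with a log2 fold change of -0.53 without the block (SE 0.24, edgeR adjusted p = 0.24) and -0.55 with it (SE 0.20, adjusted p = 0.023), which did not pass 0.01. The RSEM effective length of ERBB3, which weights a gene's transcripts by their abundance, was 4209 and 4448 bases in EV cells and 5587 and 5588 bases with the FCN3 virus. The tables list 2 RefSeq transcripts for ERBB3, and in the FCN3 libraries the value corresponds to the longer one alone. As TPM divides by this length, ERBB3 was at 1.42 and 1.41 TPM in EV cells and 0.63 and 0.80 TPM with the FCN3 virus, a wider gap than in CPM. Of the other members, NRG1 ranged most in effective length, from 2234 to 2303 bases.

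ERBB4, the remaining receptor of the family, had 0 counts in all 4 libraries, below the floor of 3 counts.

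ERRFI1 was at 81.0 and 89.7 CPM in EV cells and at 149 and 127 CPM in FCN3-virus-transduced cells. Both FCN3 libraries were above both EV libraries. The log2 fold change of 0.70 had an SE of 0.11 and an adjusted p of 0.029 in edgeR without the block, and an SE of 0.06 and an adjusted p of 5.6e-14 with it, that is 1.62-fold. DESeq2 without the block gave an adjusted p of 7.3e-05. Between the replicate 1 libraries ERRFI1 was higher by 0.88 on the log2 scale and between the replicate 2 libraries by 0.50, while EGFR was higher by 0.60 and 0.50. The ratio of ERRFI1 to EGFR on the TPM scale was 0.558 and 0.673 in EV cells and 0.676 and 0.670 with the FCN3 virus. This ratio overlapped between the groups, with EV replicate 1 the lowest of the 4 libraries. On GRCh37, ERRFI1 occupies chr1:8064464-8086369, minus strand.

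The 250 bases upstream of the annotated start of EGFR and of ERRFI1 are printed because these genes were the pair with the smallest p-values among the 10. They come from RefSeq on GRCh38.p14, with EGFR on the plus strand at chr7:55018767-55019016 and ERRFI1 on the minus strand at chr1:8026310-8026559. The promoter set held 2 entries for EGFR and 1 for ERRFI1. For EGFR the entry with the start farthest upstream is shown, and the other was not searched. Capitals mark a Sp1 box (GGGCGG) or a CCAAT box (CCAAT) on either strand.
EGFR: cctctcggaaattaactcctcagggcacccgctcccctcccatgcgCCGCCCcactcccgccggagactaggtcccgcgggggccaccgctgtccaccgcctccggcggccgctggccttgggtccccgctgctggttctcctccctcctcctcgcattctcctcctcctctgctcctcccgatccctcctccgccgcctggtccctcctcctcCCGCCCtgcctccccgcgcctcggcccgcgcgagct
ERRFI1: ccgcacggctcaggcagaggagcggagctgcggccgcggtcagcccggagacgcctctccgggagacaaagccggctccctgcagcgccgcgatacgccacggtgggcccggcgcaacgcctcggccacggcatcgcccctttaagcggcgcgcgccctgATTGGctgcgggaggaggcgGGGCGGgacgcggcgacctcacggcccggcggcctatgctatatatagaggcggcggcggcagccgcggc
The EGFR window was 73.6% and the ERRFI1 window 75.2% G or C, against a median of 58.0% over 27305 promoters. EGFR held Sp1 boxes that begin 204 and 36 bases before the start, and ERRFI1 held a Sp1 box at 70 bases and a CCAAT box at 90 bases. Of all promoters of this length, 42.3% held a Sp1 box and 33.0% a CCAAT box. The TATA box was sought only as the exact letters TATAAA on the given strand, which neither window held. ERRFI1 does hold the similar letters tatatata close to its start, which this search does not count. No cAMP response element (CRE, TGACGTCA), AP-1 site (TGACTCA), TEAD site (GGAATG) or ATF4 site (TGATGCAA), sought on both strands, was found in either window.

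AREG, EREG and BTC are neighbours on chromosome 4 of GRCh37, with EREG from 75230862 to 75254466, AREG from 75310853 to 75320722 and BTC from 75669969 to 75719733. hg19 also holds AREGB, from 75480629 to 75490486, a copy of AREG that RefSeq on GRCh38.p14 lists only as a synonym of it. Aligned to each other on GRCh37, the AREG and AREGB loci were 99.6% identical over 9876 positions, with 10 mismatches and 29 gap positions. RSEM divides reads that fit both copies, and AREGB was given 0, 73.6, 79.8 and 125 expected counts (EV replicates 1 and 2, FCN3 replicates 1 and 2) against 3710, 1113, 2708 and 898 for AREG. The split is uncertain, so the sum of the copies is given beside AREG.

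AREG (amphiregulin, a low-affinity EGFR ligand) summed with AREGB was at 102 and 70.9 CPM in EV cells and at 82.2 and 51.4 CPM with the FCN3 virus. The groups overlapped, since FCN3 replicate 1 was above EV replicate 2, but within each replicate number the FCN3 library was the lower one, by 0.31 and 0.46 on the log2 scale. The sum fell by 0.38 with the block (SE 0.06, adjusted p = 4.8e-07 in edgeR), whereas without it the log2 fold change of -0.37 (SE 0.27, adjusted p = 0.45 in edgeR) did not pass. For AREG alone the values were -0.43 (SE 0.32, adjusted p = 0.46 in edgeR) without and -0.45 (SE 0.06, adjusted p = 2.9e-08) with the block. AREGB alone differed in the other direction with the block (log2 fold change 1.41, SE 0.32, adjusted p = 2.4e-04 in edgeR), on few counts that include a 0 in EV replicate 1.

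EREG (epiregulin, which binds EGFR and ERBB4) was at 269 and 153 CPM in EV cells and at 326 and 202 CPM with the FCN3 virus. Here too the groups overlapped, and here the FCN3 library was the higher one within each replicate number, by 0.27 and 0.40 on the log2 scale. The log2 fold change was 0.32 (SE 0.33, adjusted p = 0.60 in edgeR) without and 0.34 (SE 0.05, adjusted p = 2.5e-07) with the block, or 1.26-fold. The ratio of EREG to AREG + AREGB on the TPM scale was 0.635 and 0.507 in EV cells and 0.943 and 0.914 with the FCN3 virus, with no overlap. This difference in the ratio was not tested.

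The 250 bases upstream of AREG and EREG are shown because these neighbours differed in opposite directions within the replicate pairs. Both are on the plus strand of chromosome 4 in RefSeq on GRCh38.p14, EREG at chr4:74364895-74365144 and AREG at chr4:74444886-74445135. Capitals mark the letters of a CRE, Sp1 box, CCAAT box, TEAD site or TATA box as spelled above, in reverse complement where the match is on the other strand.
AREG: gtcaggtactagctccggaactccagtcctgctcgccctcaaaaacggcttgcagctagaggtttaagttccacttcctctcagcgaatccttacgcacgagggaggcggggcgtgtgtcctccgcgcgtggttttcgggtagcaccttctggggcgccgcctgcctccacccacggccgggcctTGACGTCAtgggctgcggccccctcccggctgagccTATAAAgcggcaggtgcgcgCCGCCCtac
EREG: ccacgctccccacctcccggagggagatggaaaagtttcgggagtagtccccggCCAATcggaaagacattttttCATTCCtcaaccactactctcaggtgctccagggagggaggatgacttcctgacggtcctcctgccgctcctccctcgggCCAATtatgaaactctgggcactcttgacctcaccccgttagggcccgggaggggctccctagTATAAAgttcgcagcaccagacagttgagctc
Both windows held a TATA box, beginning 29 bases before the start of AREG and 32 bases before that of EREG, as 7.17% of all promoters did. AREG held a CRE at 65 bases, a motif found in 1.77% of promoters, and EREG held none. EREG held a TEAD site at 175 bases, found in 11.9% of promoters, and AREG held none. A match of letters does not show that a factor binds there. Promoter sequences were matched for 8 of the 10 genes, all but ERBB3 and NRG1.

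HBEGF (heparin-binding EGF-like growth factor, which binds EGFR and ERBB4) was at 6.06 and 4.78 CPM in EV cells and at 11.2 and 7.29 CPM with the FCN3 virus, from 80 to 379 expected counts. Both FCN3 libraries were above both EV libraries. It had the largest positive fold change of the 10 genes in both edgeR fits, with a log2 value of 0.76 (SE 0.27, adjusted p = 0.16 in edgeR) without and 0.79 (SE 0.14, adjusted p = 3.5e-06) with the block, or 1.72-fold. DESeq2 did not call HBEGF, with an adjusted p of 0.16 without and 0.034 with the block. On GRCh37, HBEGF occupies chr5:139712428-139726188, minus strand.

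TGFA, BTC and NRG1 did not pass 0.01 in any of the fits. TGFA (transforming growth factor alpha) was at 34.9 and 22.0 CPM in EV cells and 34.99 and 18.8 CPM with the FCN3 virus, a log2 fold change of -0.09 with the block (SE 0.08, adjusted p = 0.37 in edgeR). The groups overlapped, and the replicate 1 libraries were nearly level. NRG1, the ligand of ERBB3, was at 190 and 146 CPM in EV cells and 198 and 167 CPM with the FCN3 virus, a log2 fold change of 0.13 with the block (SE 0.05, adjusted p = 0.041 in edgeR). BTC (betacellulin) was at 1.04 and 0.60 CPM against 1.27 and 1.51 CPM, from 38, 10, 43 and 30 expected counts, so that its log2 fold change of 0.61 with the block (SE 0.31, adjusted p = 0.11 in edgeR) is known only loosely. Both FCN3 libraries were above both EV libraries for BTC. In all, 4 of the 10 genes (EGFR, HBEGF, BTC and ERRFI1) had both FCN3 libraries above and 1 (ERBB3) had both below the EV libraries, beside 28.0% and 26.5% of all tested genes, 54.5% in all.

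**Figure D2:**
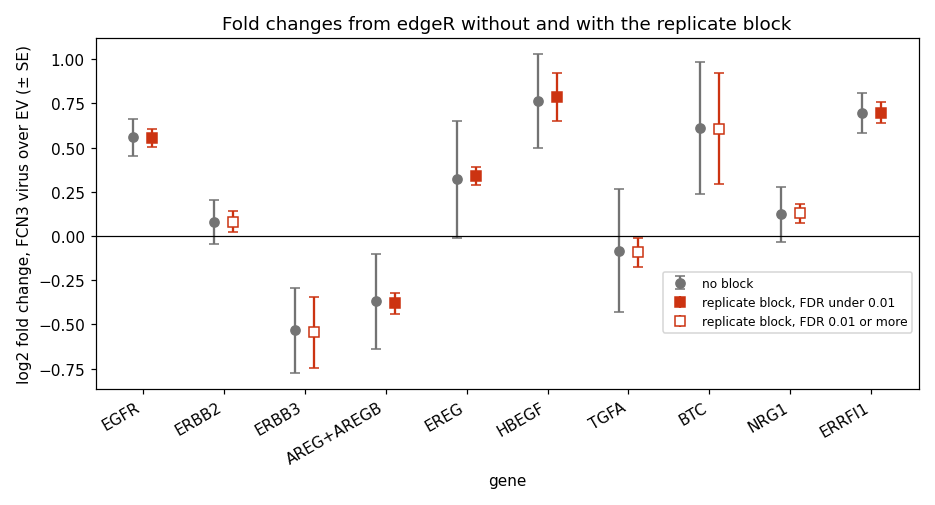
Log2 fold change of FCN3 virus over EV with its standard error, from edgeR without the replicate block (grey circles) and with it (red squares, filled where the adjusted p is under 0.01), over 2 libraries a group. The estimates nearly coincide between the fits, and the error bars shrink most with the block for EREG (SE 0.33 to 0.05), TGFA (0.35 to 0.08) and AREG + AREGB (0.27 to 0.06).

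The ligands also differed between the replicate numbers. In both groups AREG + AREGB, EREG and TGFA were higher in replicate 1 than in replicate 2, by 0.52, 0.82 and 0.67 on the log2 scale in EV cells and by 0.68, 0.69 and 0.90 with the FCN3 virus. These gaps are larger than the differences between EV and FCN3 virus for the same genes. With the condition in the model, EREG and TGFA were lower in replicate 2 by log2 values of -0.75 (SE 0.05) and -0.78 (SE 0.08). Of all tested genes, 22.2% differed between the replicate numbers in that edgeR fit. EGFR was lower in replicate 2 by -0.17 (SE 0.05, adjusted p = 0.0070 in edgeR) and ERRFI1 was not called. Replicate 1 minus replicate 2 for this pair came to 0.12 and -0.15 in EV cells and 0.22 and 0.23 with the FCN3 virus. What a replicate number marks is not stated in the labels, and replicate number and depth cannot be told apart here.

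Levels were compared between genes in TPM. In EV cells the order from the highest mean was AREG + AREGB (149 ± 36.8 TPM, SD, n = 2), NRG1 (135 ± 28.5), EREG (86.5 ± 34.4), EGFR (85.9 ± 5.71), ERRFI1 (52.6 ± 3.48), ERBB2 (30.6 ± 3.06), TGFA (12.5 ± 4.11), HBEGF (4.53 ± 0.785), ERBB3 (1.42 ± 0.0071) and BTC (1.3 ± 0.509). The libraries of AREG + AREGB and NRG1 overlapped, as did those of EREG and EGFR and those of ERBB3 and BTC, and the other neighbours in this order did not overlap. With the FCN3 virus NRG1 came first (137 ± 16.3 TPM, SD, n = 2), followed by EGFR (118 ± 11.1), AREG + AREGB (108 ± 32.3), EREG (100.4 ± 32.2) and ERRFI1 (79.3 ± 7.97), each overlapping the gene above it. ERBB2 followed at 30.1 ± 3.39 TPM, separate from ERRFI1, then TGFA at 11.0 ± 4.59, HBEGF at 7.15 ± 2.05, BTC at 2.05 ± 0.276 and ERBB3 at 0.715 ± 0.120, of which only TGFA and HBEGF overlapped.

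The 6 ligands summed to 463 and 314 TPM in EV cells and to 427 and 304 TPM with the FCN3 virus, so that the total differed more between replicates than between groups. TPM add up to the same total in each library, and FCN3 alone took 41617.5 and 44729.6 TPM in FCN3 replicates 1 and 2. This lowers the TPM of all other genes there, and small differences between the group totals cannot be read from them. Shares within the ligand total are not affected. Within that total, AREG + AREGB made up 37.7% and 39.0% in EV cells and 30.6% and 28.0% with the FCN3 virus. EREG made up 23.9% and 19.8% against 28.8% and 25.6%, and HBEGF 1.10% and 1.26% against 2.01% and 1.88%. BTC made up 0.359% and 0.299% against 0.433% and 0.738%. For these 4 of the 6 ligands the shares did not overlap between the groups, which was not tested. Shares of a total have no like value over all genes. In CPM, HBEGF and BTC did not overlap between the groups while AREG + AREGB and EREG did, beside 54.5% of all tested genes without overlap. The shares are parts of a single total, so they do not vary independently, and that of BTC rests on few counts. NRG1, at 33.6% and 36.6% against 34.8% and 41.3%, and TGFA, at 3.34% and 3.07% against 3.34% and 2.56%, overlapped.

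**Figure D3:**
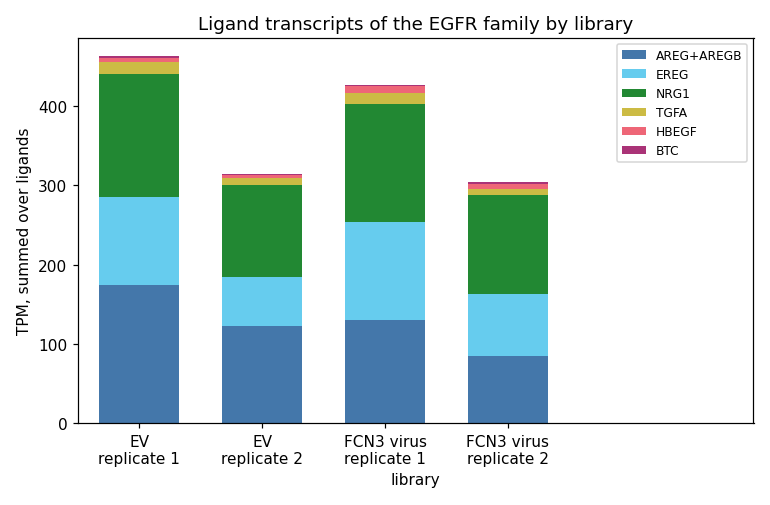
TPM of the 6 ligands, stacked, in each of the 4 libraries. The totals are 463 and 314 TPM for EV and 427 and 304 TPM for the FCN3 virus, with AREG + AREGB, the bottom segment, thinner in the FCN3 library of each replicate number, and TGFA, HBEGF and BTC together a thin layer at the top.

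The rest of the pathway was read from lists chosen with earlier results of these data known, each described by its counts. Of 6 further receptors and ligands, ERBB4, EPGN and NRG3 had 0 to 2 counts in every library and were not tested. NRG2 (log2 fold change -0.24), NRG4 (-0.36) and EGF (-0.09) were tested at 0.35 to 2.74 CPM, and 0 of the 3 were called by edgeR without or with the block.

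Of 9 genes of ligand shedding and maturation, edgeR called 0 without the block and 4, all up-regulated, with it. Of all genes, 19.1% were up-regulated and 17.1% down-regulated with the block. The median log2 fold change of the 9 was 0.17 with the block. DESeq2 without the block called 1 of the 9, beside 7.86% of all genes. ADAM17, the main sheddase of AREG, EREG, HBEGF and TGFA, was at 78.0 and 77.5 CPM in EV cells and 130 and 118 CPM with the FCN3 virus. Its log2 fold change was 0.68 (SE 0.09, adjusted p = 0.018 in edgeR without and 1.3e-14 with the block), and DESeq2 called it too. ADAM12 followed (0.46 with the block, adjusted p = 0.0012 in edgeR). ADAM15 (-0.03) and RHBDF2 (0.07), a rhomboid-like protein that escorts ADAM17 to the cell surface, were the lowest of the list without the block, and neither was called.

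Of 29 adaptors and relay kinases between the receptors and MAPK or AKT, edgeR called 0 without the block. With it, 6 were up-regulated and 3 down-regulated, beside 36.2% of all genes. DESeq2 without the block called 1 of the 29, SHC1 (adjusted p = 5.5e-05), beside 7.86% of all genes. The median log2 fold change of the 29 was -0.01. The adaptor SHC1 was at 358 and 397 CPM in EV cells and 548 and 566 CPM after FCN3 virus, with a log2 fold change of 0.56 (adjusted p = 0.028 without and 3.3e-14 with the block in edgeR). The docking protein GAB2 rose by 0.72 on the log2 scale with the block (adjusted p = 9.7e-09 in edgeR). GRB7, an adaptor of ERBB2, fell by 0.74 (adjusted p = 3.6e-04 with the block in edgeR) from 4.39 and 6.15 CPM to 2.83 and 3.32 CPM, and PLCG1 fell by 0.28.

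Of 25 genes of receptor down-regulation and traffic, 24 were tested. With the block in edgeR, 9 were up-regulated and 4 down-regulated, beside 19.1% and 17.1% of all genes, at a median log2 fold change of 0.08. DESeq2 without the block called 3 up-regulated (SH3KBP1 and CBLB among them) and 1 down-regulated (SOCS5), beside 4.43% and 3.43% of all genes. The adaptor SH3KBP1 (CIN85), which links the ubiquitin ligase CBL to the endocytosis of EGFR, was the only gene of these lists that edgeR called without the block. It stood at 151 and 149.8 CPM in EV cells and 283 and 275 CPM after FCN3 virus, with a log2 fold change of 0.89 (SE 0.08, adjusted p = 0.0066 without and 6.4e-21 with the block in edgeR). CBLB, a ubiquitin ligase related to CBL, was at 9.47 and 10.4 CPM against 20.0 and 18.3 CPM (log2 fold change 0.97, adjusted p = 3.3e-11 with the block and 0.022 without it in edgeR). SOCS5, which promotes degradation of EGFR, fell by 0.57 (adjusted p = 4.1e-10 with the block in edgeR), and the phosphatase gene PTPRJ fell by 0.33.

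Of 10 genes commonly read as transcriptional output of the MAPK cascade, edgeR called 0 without the block. With it, 4 were up-regulated, beside 19.1% of all genes up-regulated, at a median of 0.13. DESeq2 without the block called 2 up-regulated, DUSP6 (adjusted p = 1.1e-04) and ETV5 (adjusted p = 3.2e-05), beside 4.43% of all genes. DUSP6, the phosphatase that acts on ERK, was at 9.55 and 8.60 CPM in EV cells and 19.5 and 18.1 CPM after FCN3 virus, with a log2 fold change of 1.05 (SE 0.10, adjusted p = 2.9e-12 with the block, and 0.018 without it, in edgeR). The transcription factor gene ETV5 had a log2 fold change of 0.75 (adjusted p = 4.4e-14 with the block and 0.017 without it in edgeR). Its relative ETV4 (-0.13) and EPHA4 (-0.59, from 8 to 35 counts) were not called with or without the block.

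**Figure D4:**
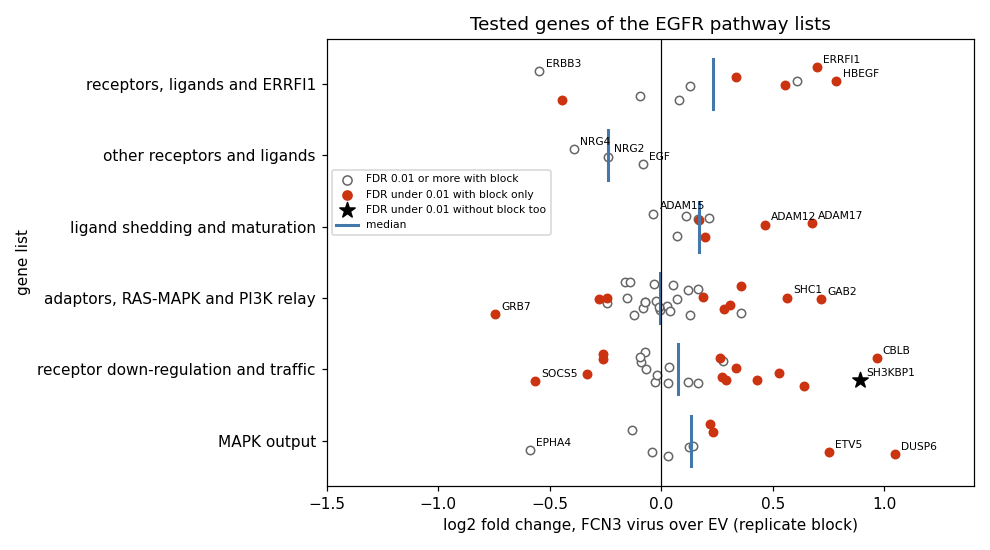
Log2 fold change of FCN3 virus over EV (edgeR with the replicate block) for each tested gene of 6 lists, 1 point per gene, with the blue bar at the list's median. Red points pass an adjusted p of 0.01 in edgeR with the block only. The star marks SH3KBP1, which passes in edgeR without it too. Vertical scatter within a row has no meaning, and AREG is drawn without AREGB. Medians lie between -0.24 and 0.23.

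Genes with the most similar pattern over the 4 libraries were found by the Euclidean distance between log2 CPM values centred on each gene's mean, among 11960 genes. Nearest to EGFR were PLEC (distance 0.0063, log2 fold change 0.56), LOC728730 (0.024) and MYO6 (0.039). Nearest to AREG were HPGD (distance 0.074, log2 fold change -0.44), CDCA7L (0.098) and LRRCC1 (0.11). With only 4 values per gene and 11960 genes searched, a small distance does not show shared regulation, which was not tested.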

How the data were processed

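Using a strand-specific mRNA kit, the authors made libraries whose reads they trimmed, aligned to hg19 with STAR 2.6.1d (version per the submitters' processing notes) and estimated abundance with RSEM over RefSeq transcripts. The deposited values used are expected counts per gene (estimated counts, not normalized, not always whole), TPM (normalized by RSEM for length and depth) and effective lengths. The deposited FPKM values were not used. Rounded expected counts were tested with R 4.3.3 and edgeR 4.0.16 (TMM, filterByExpr, quasi-likelihood test, FDR threshold 0.01) over 14099 genes, both without a block and with one for replicate number. A standard error (SE) was obtained as the size of the log2 fold change over the square root of the F statistic. DESeq2 1.42.0 and limma 3.58.1 (voom, and log2(TPM + 1) and log2(TPM + 0.1)) were alternatives. CPM are TMM-normalized.

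The 10 genes and the pathway lists were chosen with earlier results of these data known. Named beside the 10 genes are, in each list, those called by edgeR without the block and the 2 highest and 2 lowest fold changes. For EGFR and AREG, the 3 nearest patterns among genes whose mean log2 CPM was 1 or more are also named. No test was run over a list. The values of 1 gene in the relay list are not reported here. Fits were tested on simulated data. Where no difference between replicates was simulated, edgeR recovered most changed genes with or without the block. Where such a difference was simulated, edgeR missed all of them without the block and recovered most with it. DESeq2 without the block recovered some of them. The simulated difference was the same in both groups, which the block removes by design. The outcome therefore does not show which fit suits these data. Locations are from GENCODE on GRCh37, promoters from RefSeq on GRCh38.p14. Precision is limited by 2 libraries a group and, for BTC and ERBB3, by few counts.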

Additional observations from a re-analysis of the deposited data

How the results depend on the processing

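The labels give both groups replicates 1 and 2 without saying what the number marks. As a hint from the data, replicate 1 minus replicate 2 in EV cells correlated with the same contrast in FCN3-virus-transduced cells (r = 0.806 across 8310 genes, which are not independent). The replicate block moved the number of genes called from 136 to 5103 and of the 10 genes from 0 to 5. DESeq2 called 1047 genes and 2 of the 10 without, and 2212 and 4 with, the replicate block (HBEGF was not called there), and an FDR of 0.05 in edgeR gave 1014 and 2. Of the genes called, 104 of 136 were up-regulated without the block, 2690 of 5103 with it and 590 of 1047 in DESeq2. RLE factors, FCN3 left out before normalization, both other filters on low counts, voom and both TPM scales called 105 to 159 genes and 0 of the 10. Leaving out 1 library gave 92 to 267 genes, the latter without EV replicate 2, and 0 of the 10. A block cannot be fitted with a spread of its own to 3 libraries.

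With 1 library left out, the lone library of its group is assumed to vary like the others, and the log2 fold change ran from 0.44 to 0.66 for EGFR, from 0.58 to 0.81 for ERRFI1, from 0.40 (without FCN3 replicate 1) to 1.02 for HBEGF, from -0.90 to -0.07 for AREG, from -0.68 to -0.36 for ERBB3 and, for BTC, from 0.38 without EV replicate 2 to 1.19 without EV replicate 1. It changed sign for EREG (-0.07 to 0.80; -0.04 without EV replicate 2 and -0.066 without FCN3 replicate 1), ERBB2 (-0.05 to 0.20; -0.02 and -0.055 without the same libraries), NRG1 (-0.06 to 0.33; -0.059 and -0.01) and TGFA (-0.61 to 0.32; 0.32 without EV replicate 1 and 0.29 without FCN3 replicate 2). ERBB2 was also at -0.026 on both TPM scales, on which the FCN3 transcript lowers the values of other genes in the FCN3 libraries. The fits with 1 library left out had no block, so differences between replicate numbers entered their estimates. Within replicates 1 and 2, FCN3 virus minus EV on the log2 scale was 0.27 and 0.40 for EREG and 0.11 and 0.05 for ERBB2. It was 0.06 and 0.20 for NRG1 and 0.0037 and -0.23 for TGFA. Of 142 fold changes of the 10 genes under an alternative, 120 kept direction and side of the threshold, 12 came to pass it and 10 changed sign. The alternatives are set against edgeR without the block, in which no gene of the 10 passed, so none could be lost. The sum of AREG and AREGB with the block was added after seeing the data.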
